A study of Mus musculus with 20 samples.

Results

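The transcripts made from the mitochondrial genome and the nuclear genes that copy, transcribe, cut, tail and destroy them were followed in hearts of diabetic and control mice. The set held 34 of the 11856 genes in the expression table: the 13 protein-coding genes whose symbols begin with mt-, and 21 nuclear genes named for their roles in mitochondrial DNA and RNA upkeep. All 34 were found by symbol. The 20 libraries came from 5 db/db and 5 db/+ animals, and each heart gave an input RNA library and an immunoprecipitated one, enriched with an antibody against the RNA mark N6-methyladenosine (m6A). Both genotypes are on the C57BL/6 strain. The db allele is a mutation of the leptin receptor gene, and animals with 2 copies grow obese and diabetic. The controls are named db/+ in the sample titles, so they carry 1 db allele, although their genotype field reads wild type. Ages, sexes and treatments were not used here, and nothing was known of the animals beyond strain, genotype and tissue. The comparison addressed how m6A marks and transcripts differ between the diabetic and the healthy heart.

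Mitochondrial DNA is a small circle inside the mitochondrion that encodes subunits of respiratory complexes I, III, IV and V. Both of its strands are read as long precursors, which are cut at the transfer RNAs between the genes, and most of the messenger RNAs then receive short poly(A) tails. Every protein that does this work is made from nuclear genes, and heart muscle, with its constant need for ATP, is rich in both. The nuclear genes of this machinery are classical targets of the transcription factors NRF1 and GABP (also called NRF2).

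Promoter sequence is shown first because the nuclear members share a regulator in textbooks and could share its letters. Windows from 250 bases before to 50 bases after the annotated start were taken from RefSeq (GRCm38.p6), and 19 of the 21 nuclear members had one. Searched on both strands, the NRF1 half-site GCGCATG stood in 3 of the 19, Lrpprc, Polrmt and Tfb2m, against 3.91% of 32851 mouse windows and 7.96% of the 9193 genes of the expression table that had a window. The GABP site CCGGAAG stood in 11 of the 19, against 8.86% of all windows and 20.1% of those 9193 genes. No match of one motif overlapped a match of the other. In the lines below, capitals mark the match, which reads CATGCGC or CTTCCGG where it lies on the other strand.
Lrpprc, NRF1 half-site, chr17:84790830-84790858, minus strand: agcccttgcgcGCGCATGggcggagccga
Polrmt, NRF1 half-site, chr10:79746697-79746725, minus strand: agagtatttctGCGCATGctctcttgccg
Tfb2m, NRF1 half-site, chr1:179546245-179546273, minus strand: taggtcgttcgCATGCGCcattcgtaatg
Polrmt, GABP site, chr10:79746607-79746635, minus strand: ccctaagagcgCTTCCGGcagtcgcagaa
Tfam, GABP site, chr10:71238074-71238102, minus strand: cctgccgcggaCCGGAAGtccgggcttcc
Fastk, GABP site, chr5:24445276-24445304, minus strand: gtgcgcatttcCCGGAAGcggagggcggg
Polg, GABP site, chr7:79466294-79466322, minus strand: gaggacctcacCCGGAAGtccctctgcac
These matches are letters in a window and say nothing on binding. Polrmt was the member with both. Slirp held the GABP letters at 2 places, 48 and 146 bases before the start, and Tefm, Polg2, Ssbp1, Trmt10c, Mterf4 and Tk2 held them at 1.

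Levels were read as FPKM (fragments normalised by transcript length and by library size) in the 10 input libraries. Read counts were not used here, and sequencing depth is therefore unknown. A gene was tested where it averaged at least 1 FPKM, with limma on log2(FPKM + 1), and was called where the p-value, adjusted over all 10344 tested genes by the Benjamini-Hochberg method, was under 0.05. The labels list the 5 animals of a genotype as separate samples, and a p-value measures the spread between them. Of all tested genes 3.01% were called, 1.29% higher and 1.72% lower in db/db, 6.41% had genotypes that did not overlap, and 19.3% had an unadjusted p under 0.05. The calls were 133 rises and 178 falls. With sums outside the mitochondrial genome made equal they were 150 and 112, and with equal medians 161 and 113. The db/+ 5 heart stood apart in several ways: it had the lowest mitochondrial share and the most m6A peaks (20021). It also had the highest sums over 6 adipocyte markers (175 FPKM), 3 brown adipocyte markers (176 FPKM) and 6 cardiomyocyte markers (10300 FPKM). Its sums over atrial, endothelial, fibroblast, smooth muscle, macrophage, red blood cell and skeletal muscle markers were not the highest. The red blood cell sum ran from 161 to 2920 FPKM in db/db and from 153 to 1120 FPKM in db/+. The adipocyte sum ran from 5.96 to 50.9 FPKM in db/db and from 15.9 to 175 FPKM in db/+, with all 6 markers listed. The db/+ 3 heart was next in that sum (137 FPKM), with a mitochondrial share of 41.2%. The 6 cardiomyocyte markers were all listed too, and summed to between 7300 and 8270 FPKM in db/db and between 8040 and 10300 FPKM in db/+. The part of these shifts in the results below was not tested. Fewer cells of a type and less RNA per cell cannot be told apart in whole hearts.

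The 13 mitochondrial genes made up a large part of all listed FPKM. Their share was 44.5%, 44.1%, 42.6%, 42.0% and 44.7% in the db/db hearts, against 41.0%, 38.7%, 41.2%, 43.3% and 33.5% in the db/+ hearts. The db/db shares lay close together at 43.56% ± 1.23, while the db/+ shares were spread wider, at 39.54% ± 3.76 (SD, n = 5 each), and the ranges overlapped through db/+ 4. The difference was 4.02 percentage points, and 2.51 without db/+ 5. The summed mitochondrial FPKM was 1.15 times as high in db/db, and the sum over all other genes 0.976 times. No test is given for this share, which is a score over members.

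**Figure D1:**
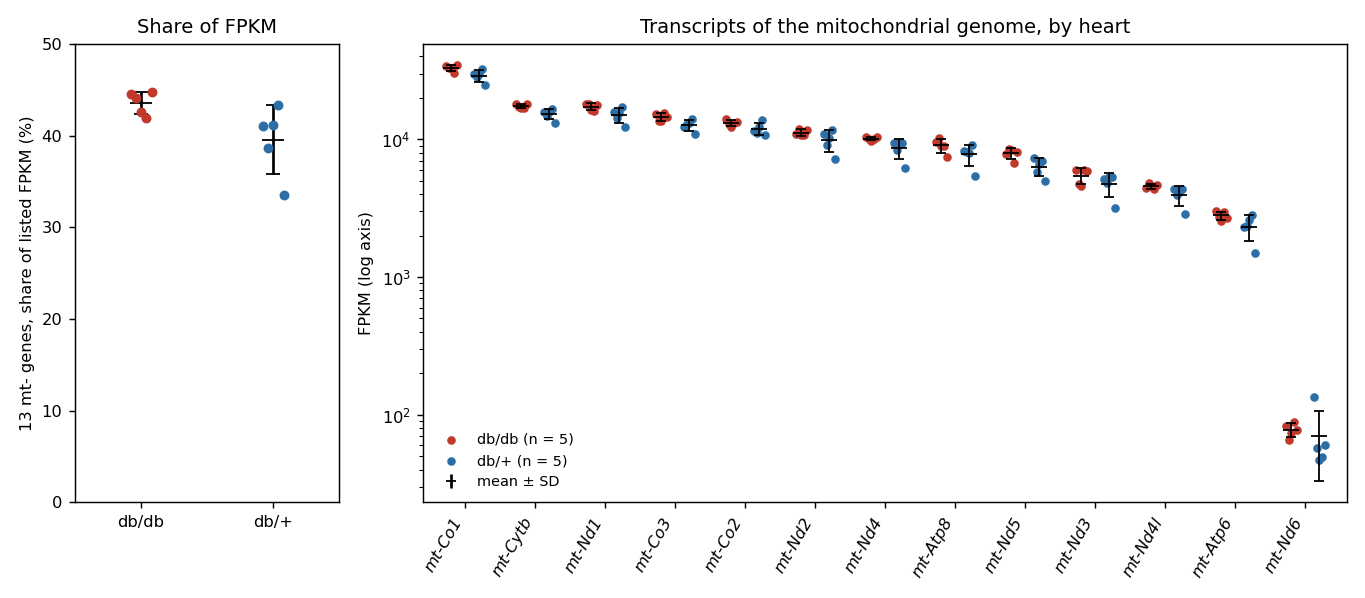
The left panel plots the share of listed FPKM (%) held by the 13 mt- genes and the right panel the FPKM of each gene on a log axis, with 1 point per heart, db/db in red and db/+ in blue, and bars for mean ± SD (n = 5). The db/db shares lie between 41.96% and 44.73%, db/+ 5 is the lowest heart at 33.48%, and mt-Nd6 sits far below the other 12 genes.

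Levels within the mitochondrial genome spanned a wide range on the FPKM scale, which is per length. The libraries were made from poly(A) RNA, so a level also depends on the tail of a transcript, which was not measured. mt-Co1, the catalytic subunit of cytochrome c oxidase (complex IV), was highest in every heart. It had 33837, 32641, 32959, 30259 and 34689 FPKM in db/db, against 29765, 28262, 29824, 32493 and 24554 FPKM in db/+. Next came mt-Cytb (mean 16300 FPKM over the 10 hearts), the cytochrome b of complex III, and mt-Nd1 (16100 FPKM), a complex I subunit, and these neighbours changed places in 3 of 10 hearts. Below them the order was mt-Co3 (13600), mt-Co2 (12500), mt-Nd2 (10500), mt-Nd4 (9350), mt-Atp8 (8390), mt-Nd5 (7120), mt-Nd3 (5090), mt-Nd4l (4230), mt-Atp6 (2560) and mt-Nd6 (73.9 FPKM). From mt-Nd1 down to mt-Nd4 each gene exceeded the next in all 10 hearts. mt-Nd4 exceeded mt-Atp8 in 9 hearts, mt-Atp8 exceeded mt-Nd5 in 9, and mt-Nd3 exceeded mt-Nd4l in 8, so those neighbours were not fully separated.

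Genes that lie on 1 messenger RNA did not have 1 FPKM. mt-Atp8 and mt-Atp6 are the membrane subunits of ATP synthase (complex V) that the mitochondrial genome encodes. They overlap at positions 7766 to 7969 and 7927 to 8607 of the mitochondrial chromosome and are translated from a shared transcript. The ratio of mt-Atp8 to mt-Atp6 was 2.75 to 3.72 in all hearts, at 3.23 ± 0.382 in db/db and 3.38 ± 0.234 in db/+. For mt-Nd4 over mt-Nd4l, the other such pair, it was 2.23 ± 0.103 in db/db and 2.19 ± 0.0688 in db/+, with a range of 2.12 to 2.34. mt-Atp8 and mt-Nd4l are the shortest of the 13 genes, at 204 and 297 bases. How the authors' program set length and shared overlapping reads is not given in the sources used here, and nuclear copies of mitochondrial DNA could also take reads.

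All 13 mitochondrial genes had positive fold changes, db/db over db/+, and none passed the test. Their log2 fold changes ran from 0.15 to 0.33 with a median of 0.21, while the median over all tested genes was -0.029. An unadjusted p under 0.05 was reached by 7 of the 13 (19.3% of all tested genes), and 2 had genotypes that did not overlap (6.41% of all). The values are tied to each other, since all 13 come from the same libraries. Without db/+ 5 the 13 log2 fold changes were still positive but smaller, from 0.06 to 0.25.

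Among the 7 subunits of complex I, which takes electrons from NADH, the log2 fold changes were 0.20 to 0.33. mt-Nd5 had the smallest p of all 13. It had 7824, 8461, 8412, 6746 and 8133 FPKM in db/db, against 7276, 5757, 6666, 6961 and 5007 FPKM in db/+. Only db/db 4 fell inside the db/+ range, and the log2 fold change was 0.33 (SE 0.103, limma adjusted p = 0.112). mt-Nd4 had 10374, 10106, 9663, 9963 and 10443 FPKM in db/db, against 9419, 8385, 9533, 9420 and 6221 FPKM in db/+. Every db/db heart was above every db/+ heart for mt-Nd4, by a small margin next to the distance of db/+ 5 from its group (log2 fold change 0.25, SE 0.105, limma adjusted p = 0.22). mt-Nd1, mt-Nd2, mt-Nd3 and mt-Nd4l had log2 fold changes of 0.20 to 0.23.

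mt-Cytb, the 1 mitochondrial subunit of complex III, was the other gene without overlap. It had 18077, 17198, 16874, 16907 and 17888 FPKM in db/db, against 15837, 14741, 15816, 16674 and 13225 FPKM in db/+. Its highest db/+ heart lay just below its lowest db/db heart (log2 fold change 0.19, SE 0.062, limma adjusted p = 0.12). The 3 subunits of complex IV had log2 fold changes of 0.15 to 0.20, with adjusted p = 0.179 for mt-Co1. For mt-Atp6 and mt-Atp8 they were 0.30 and 0.23.

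mt-Nd6 is the only protein-coding gene read from the light strand, at positions 13552 to 14070 on the minus strand, where its end overlaps that of mt-Nd5 by a few bases. It had 83.2, 65.8, 73.7, 88.8 and 78.1 FPKM in db/db, against 135, 57.2, 47.0, 49.5 and 59.9 FPKM in db/+. The db/+ 1 heart was the highest of all 10 and the other 4 db/+ hearts were the lowest 4. The log2 fold change was 0.27 (SE 0.239, limma adjusted p = 0.574), and 0.54 without db/+ 1, where it passed the test (adjusted p = 0.0286). No other setting and no other heart left out gave a call for mt-Nd6. Leaving out the most extreme heart also narrows the db/+ spread, so this call is not taken as a result. Set against the other 12 genes, mt-Nd6 stood at 5.34 ± 0.653 per 10000 FPKM in db/db and 5.52 ± 2.78 in db/+. The db/+ 1 heart was again alone, at 10.2 per 10000, with 3.44 to 6.28 in the other hearts, and it raised the plain mean of db/+ more than the mean of the logarithms. The mean log2 ratio was 0.07 higher in db/db (two-sided exact permutation p = 0.873 over the 5 against 5 hearts), and 0.32 higher without db/+ 1 (exact permutation p = 0.135). Neither difference passed the test. In poly(A) libraries both the level of mt-Nd6 and this ratio also depend on the tails of the transcripts, which were not measured.

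The composition of the mitochondrial pool overlapped between genotypes. mt-Co1 took 22.5% ± 0.806 of it in db/db and 22.8% ± 0.595 in db/+, and mt-Nd1 took 11.8% ± 0.364 and 11.8% ± 0.191 in the same order. The largest difference in mean share was that of mt-Nd5, 5.41% ± 0.465 in db/db and 4.97% ± 0.309 in db/+. The ranges of the shares overlapped for all 13 genes.

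The nuclear partners of these subunits were read beside them, from a list of 21. Of 21 nuclear subunits of complexes I, III, IV and V, 0 rose and 1 fell, where 1.29% of all tested genes rose and 1.72% fell. Negative log2 fold changes were found in 16, with a median of -0.05, beside 57.6% negative among all tested genes. Genotypes did not overlap for 2 of the 21, Cox7a1 and Uqcrc1, where 6.41% of all tested genes did not. With equal sums outside the mitochondrial genome 13 of the 21 and 50.4% of all tested genes were negative. The gene that fell was Cox7a1, the muscle isoform of a complex IV subunit. Its levels were 608, 557, 566, 618 and 624 FPKM in db/db, against 704, 661, 733, 743 and 740 FPKM in db/+. The groups did not overlap (log2 fold change -0.27, SE 0.0548, limma adjusted p = 0.027). The call was lost with equal sums outside the mitochondrial genome (-0.23, adjusted p = 0.0613) and without any 1 of 5 single hearts, db/db 1, 2 and 3 and db/+ 3 and 4. By complex, the median log2 fold changes were -0.03 for 7 nuclear complex I partners beside 0.23 for the 7 mitochondrial subunits, -0.03 for 4 of complex III beside 0.19, -0.08 for 5 of complex IV beside 0.19, and -0.08 for 5 of complex V beside 0.27.

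Of the 21 nuclear factors, 19 passed the filter, 0 rose and 1 fell, where 1.29% of all tested genes rose and 1.72% fell. Tfb1m, which methylates the 12S ribosomal RNA of the mitochondrion, was the gene that fell. Polg2, the accessory subunit of the DNA polymerase, and Nrf1 averaged 0.63 and 0.695 FPKM and were not tested. Log2 fold changes were negative in 14 of the 19, with a median of -0.06, beside 57.6% negative among all tested genes. With equal sums outside the mitochondrial genome 12 of the 19 and 50.4% of all were negative, and with equal medians 12 of the 19 and 49.9% of all. An unadjusted p under 0.05 was reached by 6 of the 19 (19.3% of all tested genes), and 2 had genotypes that did not overlap (6.41% of all), Tfb1m and Polg.

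**Figure D2:**
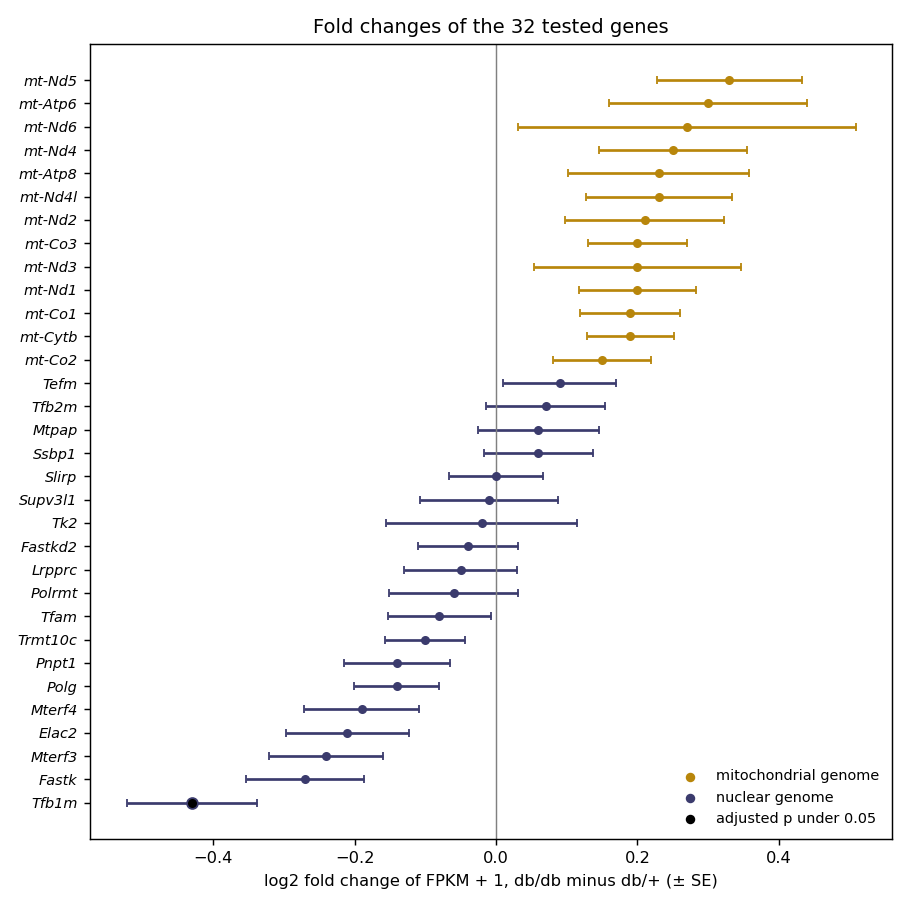
Log2 fold change of FPKM + 1, db/db minus db/+, for the 32 tested genes, with bars of 1 SE, in ochre for the mitochondrial and dark blue for the nuclear genome. The 13 mitochondrial genes lie between 0.15 and 0.33, above all 19 nuclear factors, which lie between -0.43 and 0.09, and the black point marks Tfb1m, the gene with an adjusted p under 0.05.

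The transcription factors proper showed no called change. Tfam packs mitochondrial DNA and bends its promoters, and Tfb2m opens them for the RNA polymerase Polrmt. Tfam had 8.03 to 9.20 FPKM in db/db and 8.03 to 10.2 FPKM in db/+ (log2 fold change -0.08, SE 0.0733, limma adjusted p = 0.587). Tfb2m had the highest mean of the 21 (23.0 FPKM), though Lrpprc (22.1 FPKM) exceeded it in db/db 3, db/+ 1 and db/+ 5. Tfb2m stood at 22.8, 22.9, 23.2, 24.1 and 24.9 FPKM in db/db, against 24.2, 22.4, 24.2, 24.1 and 17.7 FPKM in db/+. Its 9 hearts other than db/+ 5 lay between 22.4 and 24.9 FPKM, and its log2 fold change was 0.07 (adjusted p = 0.691), or -0.01 without db/+ 5. Polrmt was low, with 2.41 to 2.96 FPKM in db/db and 2.42 to 3.75 FPKM in db/+ (log2 fold change -0.06). Tefm, the elongation factor, averaged 11.55 ± 1.06 FPKM in db/db and 10.81 ± 1.01 FPKM in db/+, the highest fold change of the nuclear factors at 0.09 on the log2 scale (adjusted p = 0.588).

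Tfb1m lies on chromosome 17 (3519263 to 3557713, minus strand, as deposited). It had 4.46, 4.22, 4.93, 3.89 and 4.94 FPKM in db/db, against 6.25, 5.30, 6.47, 7.80 and 6.33 FPKM in db/+. No db/db heart reached the lowest db/+ heart. The means were 4.49 ± 0.455 FPKM in db/db and 6.43 ± 0.896 FPKM in db/+ (log2 fold change -0.43, SE 0.0923, limma adjusted p = 0.0314). The call was close to the threshold. It was lost with equal sums outside the mitochondrial genome (-0.40, adjusted p = 0.0609), with equal medians (adjusted p = 0.0595), and without any 1 of 7 single hearts: db/db 1, 2, 3 and 4 and db/+ 1, 3 and 4. Without db/+ 5 it held (-0.44, adjusted p = 0.0469).

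Mterf3 and Mterf4 belong to the family of the mitochondrial termination factor, and Mterf4 works with a methyltransferase in ribosome assembly. Mterf3 had 3.39, 4.38, 3.53, 3.73 and 3.32 FPKM in db/db, against 4.94, 4.40, 4.37, 4.88 and 3.92 FPKM in db/+. The groups overlapped only through db/db 2, which lay above db/+ 3 and db/+ 5 (log2 fold change -0.24, SE 0.0803, limma adjusted p = 0.131). Mterf4 averaged 2.14 ± 0.212 FPKM in db/db and 2.58 ± 0.351 FPKM in db/+ (log2 fold change -0.19, adjusted p = 0.23). Nrf1, the nuclear transcription factor named above, had 0.526, 0.617, 1.19, 0.548 and 0.694 FPKM in db/db, against 0.618, 0.639, 0.657, 0.883 and 0.571 FPKM in db/+. One heart of each genotype stood above its group.

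**Figure D3:**
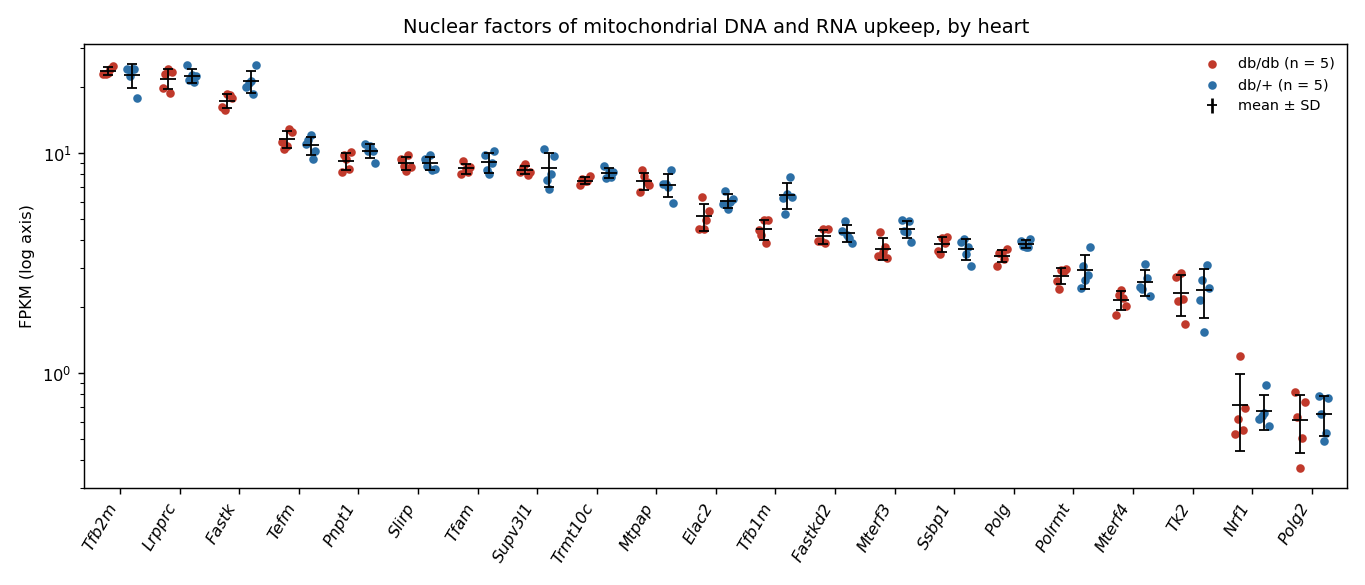
FPKM of the 21 nuclear factors on a log axis, 1 point per heart, db/db in red at the left and db/+ in blue at the right of each gene, with bars for mean ± SD (n = 5). Tfb2m, Lrpprc and Fastk are highest, near 20 FPKM, Nrf1 and Polg2 lie under 1 FPKM on average, and Tfb1m shows no overlap between genotypes.

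Of the RNA-binding factors, Lrpprc and Slirp form the complex that stabilises mitochondrial messenger RNAs. Lrpprc had 19.8, 22.8, 24, 18.8 and 23.3 FPKM in db/db, against 25.1, 21.4, 22.6, 21 and 22.3 FPKM in db/+ (log2 fold change -0.05, adjusted p = 0.784). Slirp averaged 8.96 ± 0.61 FPKM in db/db and 8.96 ± 0.597 FPKM in db/+, and its log2 fold change had a SE of 0.0661. The FASTK proteins bind chosen mitochondrial RNAs, and Fastk itself is needed for mt-Nd6 messenger RNA. Fastk had 16.1, 15.7, 18.5, 18.3 and 17.7 FPKM in db/db, against 19.9, 20.8, 21.3, 18.5 and 25.2 FPKM in db/+. The groups met at 18.5 FPKM, and the difference did not pass (log2 fold change -0.27, SE 0.0837, limma adjusted p = 0.111). Fastkd2 averaged 4.17 ± 0.31 FPKM in db/db and 4.32 ± 0.382 FPKM in db/+.

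The factors that cut, tail and degrade the transcripts overlapped between genotypes. Elac2 cuts the 3′ ends of transfer RNAs and Trmt10c is a subunit of the enzyme that cuts their 5′ ends. Elac2 had 4.51, 6.28, 4.53, 4.96 and 5.45 FPKM in db/db, against 5.86, 6.73, 5.54, 6.01 and 6.20 FPKM in db/+, where db/db 2 lay within the db/+ range (log2 fold change -0.21, SE 0.0866, limma adjusted p = 0.22). Trmt10c averaged 7.49 ± 0.269 FPKM in db/db and 8.10 ± 0.415 FPKM in db/+ (log2 fold change -0.10, adjusted p = 0.358). Mtpap, the poly(A) polymerase, averaged 7.47 ± 0.654 FPKM in db/db and 7.14 ± 0.847 FPKM in db/+. Supv3l1 and Pnpt1 make up the helicase and exonuclease that degrade RNA, with log2 fold changes of -0.01 (SE 0.0981) and -0.14 (SE 0.0753).

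Of the factors that act on the DNA itself, Polg, the catalytic subunit of the DNA polymerase, had 3.06, 3.52, 3.49, 3.31 and 3.65 FPKM in db/db, against 3.97, 3.79, 3.75, 3.72 and 4.05 FPKM in db/+. Its groups did not overlap, at a small size (log2 fold change -0.14, SE 0.0601, limma adjusted p = 0.23). Ssbp1, which coats single-stranded DNA, averaged 3.85 ± 0.312 FPKM in db/db and 3.65 ± 0.401 FPKM in db/+. Tk2, a thymidine kinase that feeds the nucleotide pool, averaged 2.30 ± 0.479 FPKM in db/db and 2.37 ± 0.584 FPKM in db/+. Polg2 had 0.369 to 0.821 FPKM in db/db and 0.492 to 0.787 FPKM in db/+.

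A wider list of mitochondrial DNA and RNA upkeep genes was read in the same fit. Of 73 listed genes, 64 were tested, and 0 rose and 3 fell, where 1.29% of all tested genes rose and 1.72% fell. Log2 fold changes were negative in 45 of the 64, with a median of -0.05, beside 57.6% of all tested genes. With equal sums outside the mitochondrial genome 39 were negative, beside 50.4% of all. An unadjusted p under 0.05 was reached by 14 of the 64 (19.3% of all tested genes). In 8 of the 64 the genotypes did not overlap (6.41% of all). Slc25a33, the carrier that brings pyrimidine nucleotides into the mitochondrion, fell most. It had 7.72, 6.92, 5.40, 9.17 and 7.91 FPKM in db/db, against 14.8, 18, 14.7, 14.3 and 13.1 FPKM in db/+. The groups stood far apart (log2 fold change -0.93, SE 0.119, limma adjusted p = 0.00326). Abat, a transaminase of GABA that also takes part in mitochondrial nucleoside salvage, had 2.19, 1.43, 0.943, 1.63 and 1.57 FPKM in db/db, against 3.18, 2.52, 3.15, 3.72 and 2.86 FPKM in db/+ (log2 fold change -0.69, SE 0.123, limma adjusted p = 0.0154). Both calls held without each single heart. Rpusd4, a pseudouridine synthase of mitochondrial RNA, had a log2 fold change of -0.36 (SE 0.0819, limma adjusted p = 0.0429) with overlap through db/+ 1, and its call was lost without any 1 of the other 9 hearts and with equal sums outside the mitochondrial genome (adjusted p = 0.0587).

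The next genes by p in that list did not pass. Hsd17b10, a subunit of the same tRNA-cutting enzyme as Trmt10c, averaged 69.4 ± 4.14 FPKM in db/db and 80.8 ± 3.67 FPKM in db/+ without overlap (log2 fold change -0.22, limma adjusted p = 0.0693). Nsun2, an RNA cytosine methyltransferase, averaged 6.77 ± 0.205 FPKM in db/db and 7.90 ± 0.276 FPKM in db/+ (adjusted p = 0.0746). Top1mt and Top3a, both topoisomerases, had log2 fold changes of -0.35 and -0.19. Twnk, the replicative helicase, and Lonp1, the matrix protease that degrades Tfam, had -0.23 and -0.18, with adjusted p = 0.114 and 0.145. Nsun2, Top3a, Twnk and Lonp1 also had genotypes without overlap, while those of Top1mt overlapped. Ppargc1a, a coactivator of NRF1, averaged 17.2 ± 2.54 FPKM in db/db and 16.5 ± 2.13 FPKM in db/+. It was named after its values were seen, as were Gabpa (10.3 ± 1.16 FPKM in db/db, 10.2 ± 0.398 FPKM in db/+) and Esrra (35.8 ± 2.94 and 36.6 ± 4.88 FPKM in the same order), which all act on these promoters.

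The relation of the nuclear factors to the mitochondrial share was read over the hearts within each genotype, on FPKM rescaled to equal sums outside the mitochondrial genome. The slope of log2(FPKM + 1) was taken per 10 percentage points of share, with genotype as a term. Over the 10331 genes outside the mitochondrial genome, 15.3% had an unadjusted p under 0.05 and 0.00968% were called, a single gene, Nrtn, named after its values were seen. No nuclear factor was called. Tfb2m had the smallest p, with a slope of 0.56 (SE 0.112, limma adjusted p = 0.113), followed by Mtpap at 0.43 (SE 0.145, adjusted p = 0.223), Pnpt1 at 0.36 (SE 0.144, adjusted p = 0.288) and Fastk at -0.28 (SE 0.118, adjusted p = 0.305). Tfam had a slope of -0.03 (SE 0.145), and Lrpprc and Slirp 0.17 each. The share itself varied mostly through db/+ 5, and the slope of Tfb2m was 0.30 without db/+ 5 and 0.16 without the 2 hearts farthest from the median, db/+ 5 and db/+ 2. Without db/+ 5, or without both of these hearts, 0 genes were called.

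The m6A peaks were read from 1 list per heart, with 8462 (db/db 5) to 20021 (db/+ 5) distinct peaks. Peaks were called per heart by the authors, and their folds over input are used only to describe a peak within its list. The lists gave peaks for 7 nuclear factors in all 10 hearts, for 9 in 1 to 9 hearts, and none for 5. Among all genes listed, 17.7% had peaks in all 10 hearts, 49% in 1 to 9 hearts and 33.4% in none. The 5 without a peak were Polrmt, Fastkd2, Polg, Polg2 and Elac2. A missing peak at these levels may lie under what the libraries could detect, since their depth is unknown.

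The 7 with peaks throughout were Tfam, Lrpprc, Slirp, Fastk, Supv3l1, Ssbp1 and Trmt10c. For Lrpprc the peak common to all hearts lay over the coding sequence and the 3′ untranslated region at chr17:84705247-84705456 on the minus strand (build as in the lists, whose gene positions fit GRCm38). Its fold was 3.26, 4.84, 4.35, 3.19 and 3.18 in db/db, and 4.40, 4.74, 4.82, 4.79 and 5.28 in db/+. The regions of Tfam, Slirp, Fastk, Supv3l1 and Ssbp1 also had peaks in every heart and, merged over hearts, touched both the coding sequence and the 3′ untranslated region. Trmt10c differed, since its region in all 10 hearts lay within the coding sequence at chr16:56034600-56034986, and another, reaching the 3′ untranslated part, had peaks in 3 db/db and 5 db/+ hearts. The highest fold of a gene in a heart stood between 2.24 and 16.4 for these genes, apart from Ssbp1 in db/db 2, at 86.4.

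**Figure D4:**
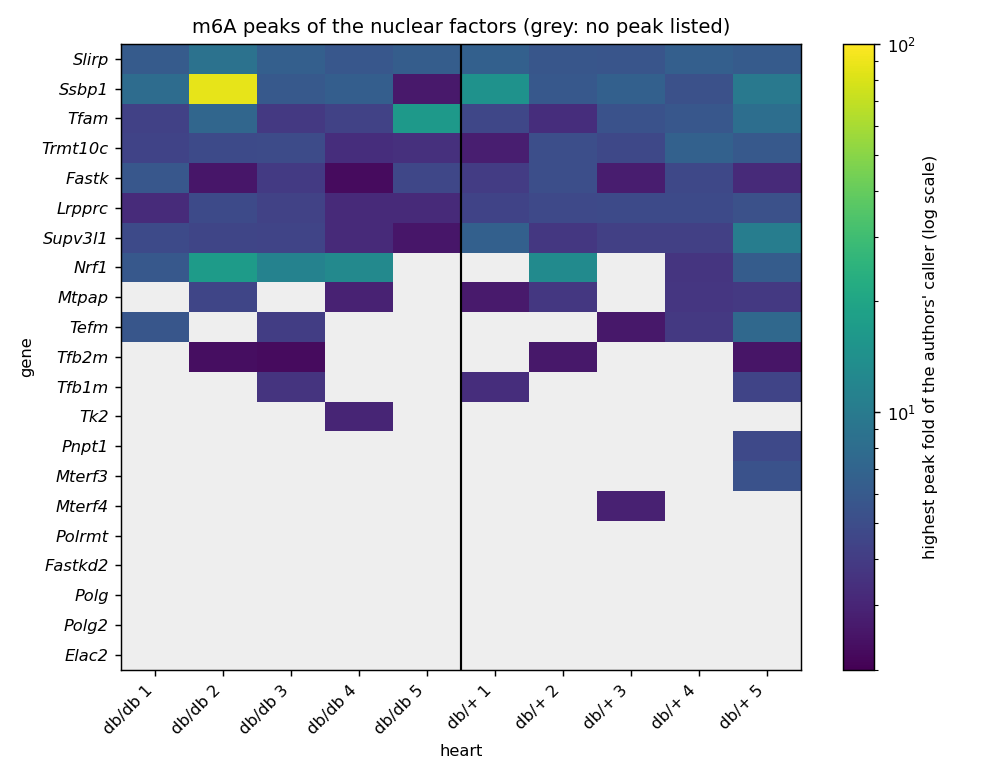
Highest fold of a listed m6A peak for each nuclear factor (rows) in each heart (columns, 5 db/db at the left of the black line, 5 db/+ at the right), on a log colour scale, with grey for no listed peak. The top 7 rows are filled in all 10 hearts and the bottom 5 rows are empty, and db/+ 5 is the only heart with peaks of Pnpt1 and Mterf3.

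Peaks in part of the hearts followed neither genotype. Nrf1 had peaks in 4 db/db and 3 db/+ hearts, mostly in its 3′ untranslated region, at a mean of only 0.695 FPKM. Mtpap had them in 2 db/db and 4 db/+ hearts, Tefm in 2 and 3, Tfb2m in 2 and 2, and Tfb1m, the factor that fell, in 1 and 2, in the same order. Levels and peaks did not run in the same order: Ssbp1 (3.75 FPKM) had peaks in 10 and Tfb2m (23.0 FPKM) in 4. Pnpt1, Mterf3, Mterf4 and Tk2 had peaks in 1 heart each.

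Merged over hearts, the 34 genes had 35 peak regions, 22 of them nuclear. A region was counted as differing where a peak was listed in 4 or 5 hearts of a genotype and in 0 or 1 of the opposite genotype. By that rule 1.69% of all 15747 regions differed and 0 of the 35. Fisher's exact test adjusted over all regions gave 0 regions under 0.05 and 106 at an unadjusted p under 0.05. The smallest p that 5 against 5 hearts allow is 0.00794, and the smallest adjusted p was 1.

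Peaks on the mitochondrial transcripts had another form. The 10 lists held 120 of them, and 46 (38.3%) covered at least 90% of their gene, against 0.374% of all peaks. Such a peak spans the transcript and marks no position within it. mt-Nd2, mt-Nd4, mt-Nd5, mt-Nd6, mt-Atp6 and mt-Cytb had a peak in all 10 hearts. The peak of mt-Nd2 covered 94.3% to 100% of the gene in db/db and 97.1% to 100% in db/+, and that of mt-Nd6 covered 94.4% to 100% in both genotypes.

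The folds of these peaks ranged widely between hearts. For mt-Nd5 the highest fold was 21.4, 112, 100, 46.3 and 11.4 in the db/db lists, and 3.75, 32.7, 10.9, 40.3 and 107 in the db/+ lists. For mt-Nd6 it was 73.0, 65.5, 84.7, 95.3 and 2.79 in db/db, and 3.92, 7.19, 5.51, 97.2 and 9.83 in db/+. High and low folds thus occurred in both genotypes, with the median peak of all lists at 3.52. They were not evenly split for mt-Nd6, whose median over the lists was 73 in db/db and 7.19 in db/+. For mt-Nd5 the medians were 46.3 and 32.7 in the same order. These differences were not tested. A peak of mt-Nd4l had the highest fold of the whole list in db/db 2 (184) and db/db 3 (241), and mt-Nd5 in db/+ 5 (107).

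The most abundant transcript, mt-Co1, had peaks in the fewest hearts, while the next by mean, mt-Cytb, had them in all 10. mt-Co1 had none in db/db and a peak in 3 db/+ hearts (two-sided Fisher's exact test, unadjusted p = 0.167). Its peaks lay over at most 11.6% of the gene, with folds of 3.14, 2.09 and 3.60 in db/+ 2, 4 and 5. mt-Co3 had peaks in 1 db/db and 3 db/+ hearts and mt-Atp8 in 2 and 5 in the same order. mt-Nd1 peaks had folds of 1.09 to 2.15, the lowest of the set, in 3 db/db and 5 db/+ hearts. mt-Co2 had peaks in 5 db/db and 4 db/+ hearts, mt-Nd3 in 4 and 3, and mt-Nd4l in 4 and 5.

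**Figure D5:**
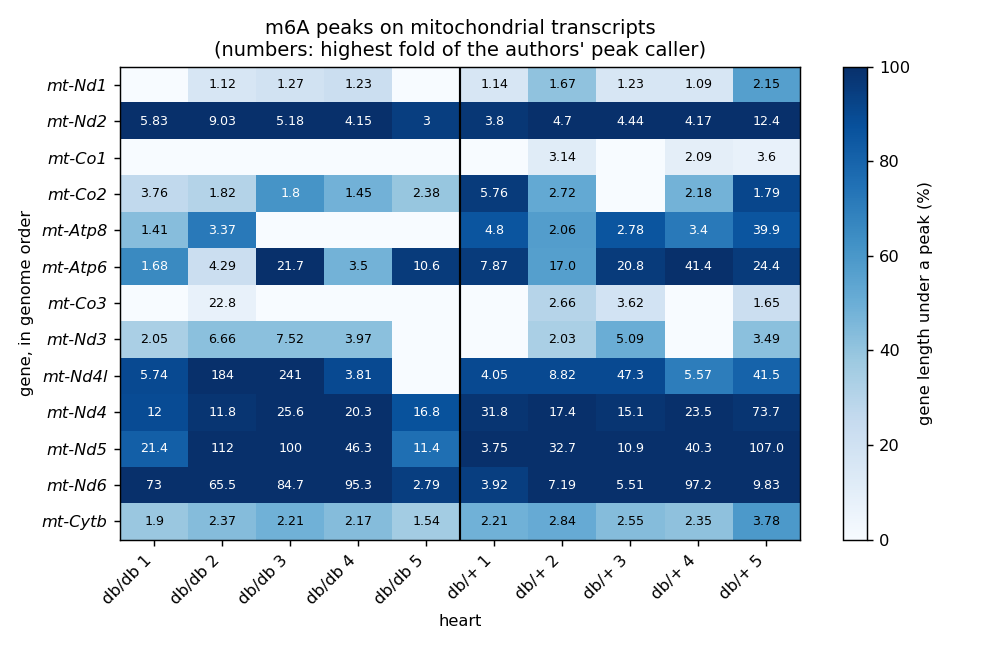
Share of each mitochondrial gene's length under an m6A peak (colour, %) in each heart, db/db at the left and db/+ at the right of the black line, with the highest fold of the authors' caller printed in each cell and genes in genome order. The rows of mt-Nd2, mt-Nd4, mt-Nd5 and mt-Nd6 are dark throughout, at 75.4% to 100%, while mt-Co1 has a peak in 3 db/+ hearts and in none of the db/db hearts.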

How the data were processed

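Poly(A) RNA of 10 hearts was sequenced before (input) and after m6A immunoprecipitation with a stranded kit, per the labels' protocols. The submitters' processing notes name, without roles, HISAT2 2.1.0, Trimmomatic 0.32 and FastQC 0.11.7, and mm9 as a build. Which programs made FPKM and called peaks is not given in the sources used here. FPKM deposited by the authors cover 11856 genes, already filtered: the larger genotype mean was never under 0.5 FPKM. FPKM is relative to library size, so a shift in the mitochondrial share moves all other values. Low values showed no whole-read steps (at most 4.4% of 500 low genes within 1% of one ratio), so no count test was run. Of 11500 genes matched to the GRCm38 table, 89.9% had a start or end within 50 bp, so no conversion between builds was made. Gene positions are given as deposited, and 1 was added to the deposited peak starts so that they count from 1. Promoter positions are those of the RefSeq windows. The peak lists deposited by the authors give a fold (ratio of immunoprecipitated to input signal) and a p-value per peak. Of 146953 lines, 5117 repeats of a position were removed.

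limma 3.58.1 (R 4.3.3, trend) was fitted on log2(FPKM + 1) for the 10344 genes that averaged 1 FPKM or more, db/db minus db/+, after a test on simulated data. With a pseudocount of 1, fold changes of low genes come out too small. The mt-Nd6 ratio had an exact permutation test. Regions were peaks merged over hearts that shared at least 1 exonic bp and the strand, tested with Fisher's exact test (scipy 1.17.1). Names follow a rule: all members, and of the wider lists the called genes and up to 6 more by smallest p. The members and lists were chosen with earlier results of these data known. Same-numbered db/db and db/+ hearts did not deviate together (correlations -0.105 to 0.0283), so numbers were not used as pairs.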

Additional observations from a re-analysis of the deposited data

Results flagged for a closer look

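In 6 of 72 groups of 5 hearts looked at, 1 heart lay far from the rest by Dixon's ratio, and chance flags about 1 in 20. In db/+ 5, mt-Nd3 was 3146 FPKM, with 4775 to 5364 FPKM in the other db/+ hearts. mt-Nd4l was 2847 FPKM there, with 3962 to 4336 FPKM in the others. Tfb2m was 17.7 FPKM in the same heart, with 22.4 to 24.2 FPKM in the others. This heart also had the lowest mitochondrial share, and whether these values belong together was not tested. mt-Nd6 was 135 FPKM in db/+ 1, with 47.0 to 59.9 FPKM in the other db/+ hearts. Nrf1 was 1.19 FPKM in db/db 3, with 0.526 to 0.694 FPKM in the other db/db hearts, and 0.883 FPKM in db/+ 4, with 0.571 to 0.657 FPKM in the other db/+ hearts.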

How the results depend on the processing

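The log2 fold changes of the 13 mt- genes were positive under every alternative run (another pseudocount, no filter, at least 5 FPKM, equal sums outside the mitochondrial genome, equal medians, replicate block, no trend, each heart left out), and 0 were called except mt-Nd6 without db/+ 1, so calls ran from 0 to 1. For nuclear factors, 0 were called with equal sums, with equal medians and with the replicate block, and 0 to 1 with single hearts left out. Over all genes 72 were called with the block and 112 to 317 with single hearts left out. Of the wider list 1 was called at a minimum of 5 FPKM, where Abat and Rpusd4 lay under that minimum and were not tested. With hearts left out 2 to 3 of that list were called. Of the partner subunits 0 were called with equal sums, equal medians and the block, and 0 to 1 with hearts left out. Near-zero log2 fold changes turned sign: Supv3l1 to 0.02 and 0.02 and Tk2 to 0.0011 and 0.01 with equal sums and equal medians. With single hearts left out they ran from -0.01 to 0.10 for Tfb2m, -0.10 to 0.01 for Polrmt, -0.03 to 0.03 for Slirp, -0.07 to 0.06 for Supv3l1, -0.12 to 0.05 for Tk2 and -0.07 to 0.32 for the mt-Nd6 ratio. Genes called for their slope on the share numbered 12 on FPKM as deposited, 49 without a genotype term, 0 with the block, 0 without the 2 hearts farthest from the median and 0 to 4 with hearts left out. Differing regions numbered 146 for peaks with p under 1e-5 and 406 to 527 with a list left out, where fewer hearts are asked for. At 3 or more hearts against none, 328 of all 15747 regions differed, 103 more in db/db and 225 more in db/+. Of the regions of the 34 genes, 2 differed by that rule (mt-Co1 and mt-Co3, more in db/+), and 0 to 2 with a list left out. Apart from the 5 FPKM filter, the cause of these shifts was not tested. The replicate block (numbers pair no samples) moved Tfb1m to adjusted p = 0.101, and no heart correlated best with its own number. The share difference ran from 2.51 to 4.97 points with hearts left out.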
